A study of Danio rerio with 18 samples.

Results

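Macrophages can be recognised by the transcription factors that specify them and by the receptors and effectors they carry, and 10 such genes were examined here in ribosome-associated RNA from zebrafish larvae. They were the regulators irf8 (ENSDARG00000056407) and spi1b (ENSDARG00000000767, listed as SPI1), the receptor genes csf1ra and csf1rb, 2 genes listed as MPEG1 (ENSDARG00000055290, called the first MPEG1 gene below, and ENSDARG00000043093, called the second), the surface receptor genes marco and mrc1a, and the invariant chain genes cd74a and cd74b. The rule that lists them uses names only, and it was written with earlier results of these data known. Of the 10, 9 were found among the 31953 genes of the tables. No gene was matched to mrc1a, and a gene listed as MRC1 (ENSDARG00000102100) was not taken for it.

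Translating ribosome affinity purification (TRAP) had been used to profile keratinocytes, neutrophils and macrophages of 3 days post-fertilization larvae in which oncogenic HRasG12V, or HRas as control, was expressed in keratinocytes. The Ras plasmids were pTol2-krt4-RFP-HRas and pTol2-krt4-RFP-HRasG12V, so every library, controls included, came from larvae that expressed an RFP-labelled Ras from the krt4 promoter after injection into early embryos. The tag on the ribosomes was EGFP-L10a, driven in keratinocytes by the krt4 promoter of a second injected plasmid in wild-type larvae, in neutrophils by Tg(LyzC:EGFP-L10a) and in macrophages by Tg(mpeg1:EGFP-L10a). Each of the 6 groups had 3 libraries, each library came from 50 pooled larvae, and the replicate number is given as a batch in the labels. A macrophage in these libraries is thus a cell in which the mpeg1 promoter was active, and in the macrophage and neutrophil lines Ras and the ribosome tag were driven by different promoters.

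Spi1 is an ETS-family factor on which myeloid development depends, and Irf8 directs zebrafish myeloid precursors towards macrophages and away from neutrophils. Csf1r is the receptor tyrosine kinase for the macrophage growth factors Csf1 and Il34 and has a pair of genes in zebrafish, where csf1ra is also known from pigment cells. Mpeg1, or perforin-2, is a pore-forming protein of phagocytes that acts on engulfed bacteria. Marco is a scavenger receptor that binds bacteria, the mannose receptor encoded by mrc1a is in zebrafish best known from lymphatic and venous endothelium, and Cd74 is the chaperone that guides MHC class II molecules to the compartment where they are loaded.

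The depth of 17 libraries ranged from 6206924 to 14781123 expected counts, most of which (72.9% to 94.7% over the 18 libraries) fell on 10 features. The remaining library, macrophage HRas control replicate 3, had 16990 counts on 1029 genes. Both macrophage libraries of batch 3 were left out of the model, which leaves 2 macrophage libraries per construct, and their values are given only for inspection. Levels are normalised CPM, that is, counts scaled to a common library size after TMM normalization. The markers of the cell types followed the labels in part. Summed over 16 pan-leukocyte genes, the macrophage libraries in the model lay between 92.4 and 216 CPM and the neutrophil libraries between 13.6 and 52.9 CPM, while 20 keratinocyte genes summed to between 1399 and 2788 CPM in the macrophage libraries and to between 1004 and 1934 CPM in the neutrophil libraries. Keratinocyte transcripts were thus abundant in every library. The 8 neutrophil genes matched summed to between 3.54 and 67.5 CPM in the neutrophil libraries. They summed to between 7.46 and 14.3 CPM in the macrophage libraries in the model and between 3.93 and 13.6 CPM in the keratinocyte libraries. The lowest of these sums was that of neutrophil HRas control replicate 3.

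Most members were more abundant in macrophages than in the other cell types. The second MPEG1 gene and the cd74 genes were the exceptions, and csf1rb was not called against keratinocytes. Of the 9 genes found, 7 passed the filter on low counts, and 6 of these were higher in macrophages than in the mean of keratinocytes and neutrophils by edgeR's quasi-likelihood test (Benjamini-Hochberg adjusted p at most 0.05 over 15723 genes). Over all genes tested, 3.03% were called higher in this comparison. Against neutrophils alone 6 members were higher, where 3.06% of all genes were, and against keratinocytes alone 5 were higher, where 3.43% of all genes were. In the same 6 genes, all 4 macrophage libraries lay above all 12 other libraries, which was so for 1.96% of all genes tested. Low genes such as irf8 passed the filter through the macrophage libraries, so the counts of members describe them and are not a separate test. Genes shared by leukocytes also differed between the macrophage and neutrophil libraries. Of 16 pan-leukocyte genes, 16 were above 0 in macrophages minus neutrophils and 10 were called higher. Their median log2 difference was 2.47, against 3.41 in the 7 members tested. The part of this shift in the members' differences from neutrophils was not tested. In pooled lysates like these, fewer cells of a type and less RNA per cell cannot be told apart.

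**Figure D1:**
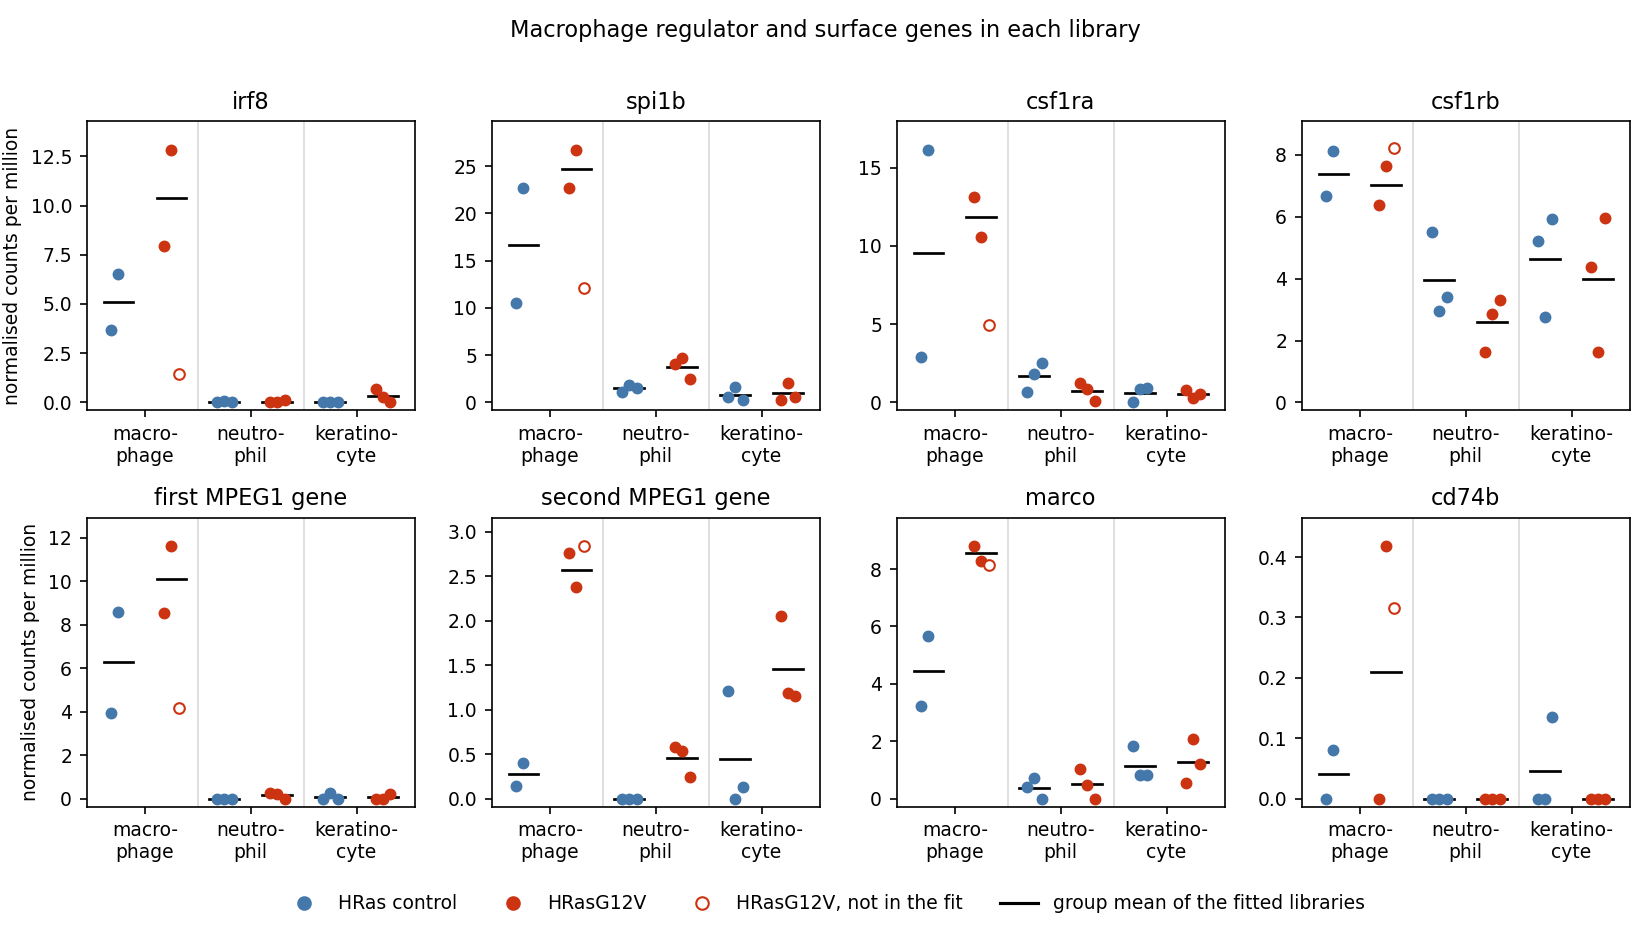
Normalised CPM (vertical axis, a separate scale in each panel) of 8 members in each library, by cell type, with HRas control in blue and HRasG12V in red. Filled points are the 16 libraries of the model, black lines are group means, the open point is macrophage HRasG12V replicate 3, and macrophage HRas control replicate 3 is not drawn. irf8 and the first MPEG1 gene lie at or near 0 outside macrophages, csf1rb is present in every library shown, and the second MPEG1 gene is as high in keratinocytes as in some macrophage libraries.

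The regulator irf8 was almost confined to the macrophage libraries. It stood at 3.67 and 6.53 CPM in macrophage HRas control replicates 1 and 2 and at 7.92 and 12.8 CPM in the HRasG12V replicates. In neutrophils 4 libraries were at 0 and the highest held 0.120 CPM. In keratinocytes 4 libraries were at 0 and the highest, HRasG12V replicate 1, held 0.683 CPM. No library of another cell type came near the lowest macrophage library of the model. Summed over libraries, irf8 had 502 counts in macrophages, 2 in neutrophils and 6 in keratinocytes. Relative to library size after TMM normalization, that is 319-fold the neutrophil level (95% interval from counting error alone, 87.7 to 2637, exact binomial). It is 63.6-fold the keratinocyte level (29.0 to 174). These ratios rest on very few counts, and against a floor of 3 counts per library the macrophage level was 35.4-fold the neutrophil floor and 21.2-fold the keratinocyte floor. The fitted log2 difference from the mean of the other cell types was 6.75 ± 0.62 (SE, adjusted p = 2.81e-09). irf8 passed the filter on low counts through the macrophage libraries, so this difference describes the gene and is not a separate test.

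spi1b had the most reads of the members in macrophages and was also present, at a lower level, in neutrophils. It stood at 10.6 and 22.7 CPM in the macrophage HRas control libraries and at 22.7 and 26.7 CPM in the HRasG12V libraries. The neutrophil libraries held 1.09, 1.82 and 1.56 CPM with HRas control and 4.08, 4.71 and 2.52 CPM with HRasG12V. The keratinocyte libraries held between 0.271 and 2.07 CPM, with a median of 0.600. Macrophages stood apart from both, and the neutrophil and keratinocyte ranges overlapped. The log2 difference of macrophages was 2.92 ± 0.30 from neutrophils (adjusted p = 3.11e-08) and 4.45 ± 0.35 from keratinocytes (adjusted p = 1.25e-10).

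The proportion of the regulators to each other varied between macrophage libraries, and its differences were not tested. irf8 made up 25.8% of the counts of irf8 and spi1b together in HRas control replicate 1 (95% exact interval 17.4 to 35.7), 22.3% in replicate 2 (18.1 to 27.0), 25.9% in HRasG12V replicate 1 (21.4 to 30.9) and 32.4% in replicate 2 (29.4 to 35.5). The interval of HRasG12V replicate 2 lies above that of HRas control replicate 2 and overlaps those of both replicate 1 libraries. In HRasG12V replicate 3, which is not in the model, the share was 10.5% (6.32 to 16.03), below all 4 others. The intervals cover counting error only and take each read as an independent molecule. Amplified reads without molecular identifiers are not independent molecules, so the intervals may be too narrow even for counting error. They do not show that the libraries differ beyond the spread between pools. This proportion was chosen after the values were seen.

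The paired receptor genes behaved differently. csf1ra stood at 2.93 and 16.1 CPM in the macrophage control libraries and at 13.2 and 10.6 CPM with HRasG12V, against 0.120 to 2.53 CPM in neutrophils and 0 to 0.949 CPM in keratinocytes. HRas control replicate 1 was the low macrophage library and lay only just above the highest neutrophil library. The log2 difference was 3.22 ± 0.48 from neutrophils (adjusted p = 1.90e-05) and 4.08 ± 0.56 from keratinocytes (adjusted p = 4.75e-06).

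csf1rb was the most even member among macrophage libraries and the least specific of those called. The macrophage libraries held 6.68, 8.11, 6.39 and 7.65 CPM (HRas control replicates 1 and 2, then HRasG12V replicates 1 and 2). Neutrophil libraries held between 1.63 and 5.50 CPM with a median of 3.13, and keratinocyte libraries between 1.64 and 5.97 CPM with a median of 4.79. The lowest macrophage library was thus above the highest other library by a narrow margin. The log2 difference was 1.31 ± 0.32 from neutrophils (adjusted p = 0.0109) and 0.91 ± 0.34 from keratinocytes (adjusted p = 0.115), and from the mean of both it was 1.11 ± 0.29 (adjusted p = 0.0189). The last call was lost without macrophage HRas control replicate 2 (0.220), macrophage HRasG12V replicate 2 (0.222) or keratinocyte HRas control replicate 2 (0.0513), and the call against neutrophils without either of those macrophage libraries (0.136 and 0.128) or neutrophil HRasG12V replicate 1 (0.0526). Its expected count was a whole number, within 1e-06, in only 1 of 18 libraries, macrophage HRas control replicate 3, where it was 0. All of its values above 0 thus include reads that RSEM divided between features, and its level is uncertain to that extent. Divided reads also entered other members. Whole counts, with 0 taken as whole, were found in 7 of 18 libraries for spi1b, 10 for csf1ra and 12 for marco.

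The ligands of these receptors were near the detection limit. csf1a, csf1b and il34 did not pass the filter on low counts, and the 16 libraries held 6, 13 and 5 counts of them in macrophages, 16, 12 and 39 in neutrophils and 11, 5 and 6 in keratinocytes. They were not tested.

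The MPEG1 genes differed from each other in where they were found. The first MPEG1 gene stood at 3.96 and 8.61 CPM in the macrophage control libraries and at 8.56 and 11.6 CPM with HRasG12V. Of the 12 other libraries, 8 were at 0 and the highest, keratinocyte HRas control replicate 2, held 0.275 CPM. Its 508 macrophage counts stood against 7 in neutrophils and 4 in keratinocytes. Relative to library size after TMM normalization, the ratios were 92.1 (95% counting interval 44.4 to 230) and 96.5 (37.5 to 356). Both levels are under the floor of 3 counts per library, against which the macrophage level was 35.8-fold and 21.5-fold. The log2 difference from the mean of both was 6.74 ± 0.59 (adjusted p = 9.81e-10), close to that of irf8. The macrophage libraries were drawn through the mpeg1 promoter, and the gene passed the filter on low counts through them. Its difference thus describes the gene and is not a separate test.

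The second MPEG1 gene was not specific to macrophages. It stood at 0.147 and 0.403 CPM in the macrophage control libraries and at 2.76 and 2.38 CPM with HRasG12V. Neutrophil control libraries were all at 0, and with HRasG12V they held 0.584, 0.537 and 0.240 CPM. Keratinocyte libraries held 1.21, 0 and 0.136 CPM with HRas control and 2.05, 1.18 and 1.16 CPM with HRasG12V. The macrophage control libraries lay within the ranges of keratinocytes and of neutrophils, and both macrophage HRasG12V libraries lay above them. The log2 difference of macrophages was -0.09 ± 0.78 from keratinocytes (adjusted p = 0.976) and 3.41 ± 1.07 from neutrophils (adjusted p = 0.0688). Neither passed the threshold, although the difference from neutrophils did so under 5 alternatives given in the closing section. Another gene listed as MPEG1 (ENSDARG00000078569) held 1 count in all 18 libraries.

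Of the surface receptor genes, marco was enriched in macrophages. It stood at 3.23 and 5.67 CPM in the macrophage control libraries and at 8.79 and 8.29 CPM with HRasG12V, against 0 to 1.04 CPM in neutrophils and 0.547 to 2.07 CPM in keratinocytes. All macrophage libraries were above all others. The log2 difference was 3.49 ± 0.51 from neutrophils (adjusted p = 1.75e-05) and 1.96 ± 0.55 from keratinocytes (adjusted p = 0.0236). The call against keratinocytes was lost when any of 5 libraries was left out: macrophage HRas control replicate 2 (0.166), macrophage HRasG12V replicate 1 (0.1246) or replicate 2 (0.0954), keratinocyte HRas control replicate 2 (0.0990) or keratinocyte HRasG12V replicate 1 (0.107).

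The gene listed as MRC1, which was not taken for mrc1a, had a mean of 3.51 ± 1.19 CPM (SD, n = 4) in macrophages, 1.56 ± 0.91 CPM (n = 6) in neutrophils and 2.81 ± 1.80 CPM (n = 6) in keratinocytes. Its log2 difference from the mean of the others was 0.51 ± 0.43 (adjusted p = 0.715). mrc1b, a mannose receptor gene of the macrophage marker list, was higher in macrophages by 3.72 ± 0.57 on the log2 scale (adjusted p = 2.54e-05).

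The invariant chain genes were hardly detected. cd74a had 4 counts in all, 2 of them in keratinocyte HRasG12V replicate 3 and 1 each in macrophage HRas control replicate 2 and HRasG12V replicate 2. cd74b had 10 counts in macrophage HRasG12V replicate 2, 4 in replicate 3 and 1 each in macrophage HRas control replicate 2 and keratinocyte HRas control replicate 3. It was at 0 in all 6 neutrophil libraries. Neither gene passed the filter. Exact two-sided permutation tests of log2(TPM + 1) compared 4 macrophage libraries with 6 keratinocyte and with 6 neutrophil libraries (4 tests). The adjusted p-values, against keratinocytes and neutrophils, were 1 and 0.356 for cd74a and 0.356 and 0.356 for cd74b. The smallest possible unadjusted p is 0.00952 for values without ties, but most libraries were tied at 0. Against neutrophils, which were all at 0 for both genes, the unadjusted p of 0.267 was the smallest that these values allow. A difference of macrophages from the other cell types was not detectable for either gene at this depth.

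**Figure D2:**
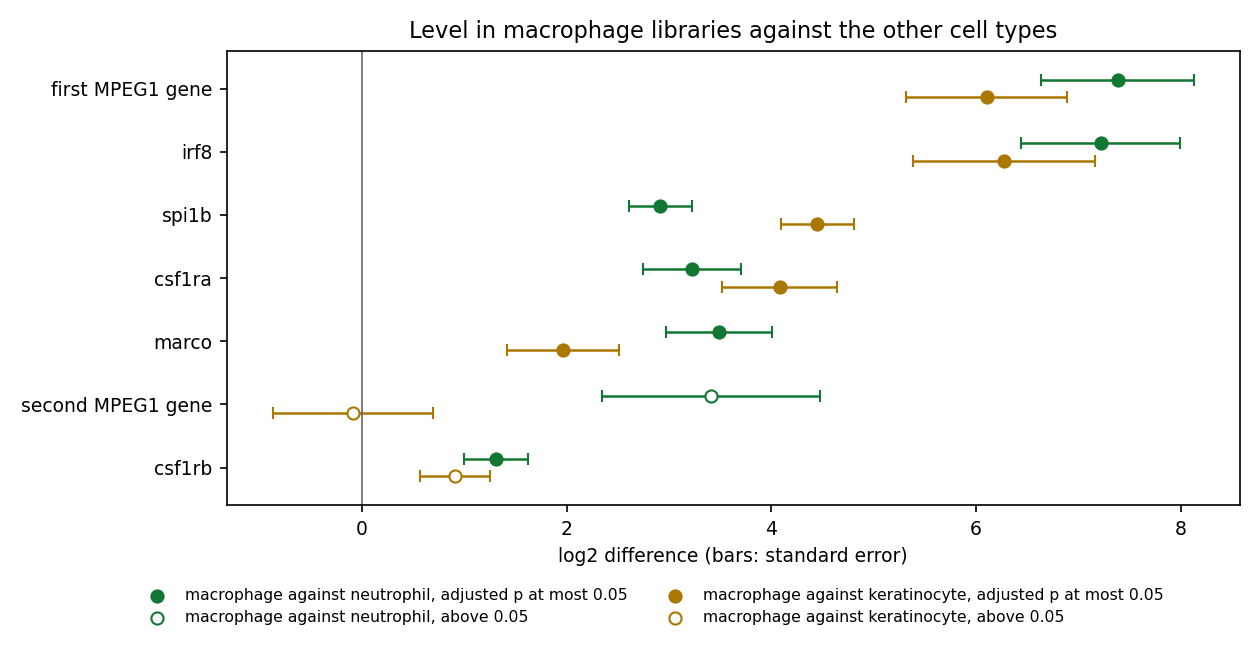
Log2 difference (horizontal axis) of the macrophage libraries from neutrophils (green) and from keratinocytes (ochre) for the 7 members that passed the filter, with standard errors as bars. Filled points have an adjusted p of at most 0.05. The first MPEG1 gene and irf8 have differences between 6.10 and 7.38, and csf1rb and the second MPEG1 gene are not called against keratinocytes.

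Compared per transcript length as TPM, spi1b had the highest level of the 9 genes in each of the 4 macrophage libraries of the model, with 4.30, 9.21, 11.1 and 28.6 TPM. Its mean was 13.3 ± 10.6 TPM (SD, n = 4). It was followed by irf8 with 5.62 ± 5.998, marco with 4.70 ± 3.95, the first MPEG1 gene with 3.99 ± 3.54, csf1ra with 3.30 ± 2.19, csf1rb with 1.11 ± 0.73, the second MPEG1 gene with 0.71 ± 0.81, cd74b with 0.43 ± 0.80 and cd74a with 0.035 ± 0.040 TPM. The genes share libraries, so their order was compared within each. spi1b was above irf8, and the second MPEG1 gene above cd74b, in all 4 libraries. Each other pair of neighbours from irf8 to the second MPEG1 gene changed order in at least 1 library, and cd74a and cd74b were tied at 0 in 2. For every member but cd74a, which was tied, the highest TPM of the 4 libraries was that of HRasG12V replicate 2. That library also had the smallest share of its counts on 10 features, 72.9%.

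The spread between macrophage libraries differed by gene. Over the 4 libraries of the model and HRasG12V replicate 3, the highest level was 1.29 times the lowest for csf1rb, 2.53 times for spi1b, 2.73 times for marco and 2.93 times for the first MPEG1 gene. It was 5.52 times for csf1ra, 9.04 times for irf8 and 19.4 times for the second MPEG1 gene, whose lowest library held 1 count. That count is under the floor of detection, and all these ratios span both constructs. The lowest library was HRas control replicate 1 for spi1b, csf1ra, marco and both MPEG1 genes, HRasG12V replicate 3 for irf8 and HRasG12V replicate 1 for csf1rb.

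Other genes of the same biology were mostly higher in macrophages too. Of 13 matched myeloid transcription factors 11 could be tested. Of these, 7 were higher than in the mean of the other cell types and 1 was lower, where 3.03% and 0.852% of all genes were. The clearest were spi1a (3.00 ± 0.28 on the log2 scale, adjusted p = 1.40e-09), mafba (2.03 ± 0.19, 1.71e-09), mafbb (7.66 ± 0.79, 4.86e-08) and cebpa (1.79 ± 0.28, 3.46e-05). spi1a is the second spi1 gene of zebrafish, and mafba and mafbb encode Maf factors of monocytes and macrophages. The lower gene was cebpd, by -1.26 ± 0.29 (adjusted p = 0.00573). The median log2 difference of the list was 1.93, against 0.01 over all genes tested.

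Of 20 matched macrophage markers 11 could be tested, and 10 were higher, among them havcr1 (5.91 ± 0.62), apoeb (1.55 ± 0.19), slc7a7 (4.07 ± 0.51) and ctsc (3.05 ± 0.40). The others failed the filter on low counts and were not tested. Their summed counts were not all highest in macrophages. For example, c1qa had 30 counts in macrophages and 1 in neutrophils, ptafr had 17 and 22, and grn2 had 0 and 1. These sums are over 4 macrophage and 6 neutrophil libraries and are not scaled to library size, so they give no direction for ptafr. Of 16 pan-leukocyte genes 14 were higher, led by coro1a (3.97 ± 0.25), lcp1 (3.33 ± 0.22), fcer1gl (4.63 ± 0.34) and arpc1b (2.74 ± 0.31), which act in the leukocyte cytoskeleton and in Fc receptor signalling. Of 11 matched genes of MHC class II presentation only 5 could be tested, and 2 were higher, the cathepsin S genes ctss2.2 (5.57 ± 0.58) and ctss2.1 (4.003 ± 0.63). Of the lists for other cells, 7 neutrophil genes gave 1 higher, csf3r (3.79 ± 0.95), and 1 lower, lyz (-1.61 ± 0.41), and 11 endothelial genes gave 2 higher, stab1 (1.56 ± 0.32) and fli1b (1.66 ± 0.42). stab1 encodes a scavenger receptor that macrophages also carry. Of 20 keratinocyte genes 0 were higher and 9 were lower, led by anxa1c (-1.50 ± 0.29), krt17 (-1.28 ± 0.26), evpla (-1.17 ± 0.24) and krt15 (-1.32 ± 0.27). In the xanthophore, skeletal muscle and lymphocyte lists 0 of 3, 9 and 3 genes tested were called in either direction, with 0, 2 and 1 at an unadjusted p under 0.05. Some genes of these lists passed the filter on low counts through the macrophage libraries. For example, havcr1 had 375 counts in macrophages, 8 in neutrophils and 7 in keratinocytes, and ctss2.2 had 354, 4 and 6. The calls of such genes are not a separate test. The sets share libraries and overlap in function, and their counts are descriptions.

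The genes whose pattern over the 16 libraries was most like the mean of the members were si:dkey-27i16.2 (Pearson's r 0.976), ctss2.2 (0.971), MPP1 (ENSDARG00000105287, 0.960), ENSDARG00000086947 without a symbol (0.959) and shtn2 (0.957). si:dkey-27i16.2 had a mean of 10.8 CPM in macrophages, 0.141 in neutrophils and 0.136 in keratinocytes. MPP1 was the abundant one, with 70.0 CPM in macrophages, 14.1 in neutrophils and 21.0 in keratinocytes. The points of these correlations share cell types and batches, and r is given as a description.

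No member was called for HRasG12V in any cell type. In macrophages 0 of 7 members, and 0.0% of the 15723 genes, passed the threshold in edgeR's quasi-likelihood test. At an unadjusted p under 0.05 there were 672 genes and 1 member, the second MPEG1 gene. DESeq2 called 3 genes higher and 2 lower, and 0 members. The fitted difference was above 0 in 6 of 7 members, against 51.0% of all genes, with a median of 0.75 on the log2 scale against 0.01 over all genes. This was not particular to the members. The difference was above 0 in 15 of 16 pan-leukocyte genes (median 0.78), 11 of 11 macrophage markers (0.88) and 9 of 9 skeletal muscle genes (0.73). It was above 0 in 3 of 11 endothelial genes (median -0.30). The genes share the same libraries, so these counts are descriptions. With 2 libraries per construct, the HRasG12V libraries were above both controls for irf8, marco and the second MPEG1 gene, and this was so for 20.4% of all genes.

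In detail, irf8 had a mean of 10.4 CPM with HRasG12V and 5.10 CPM with HRas control in macrophages, a log2 difference of 1.03 ± 0.68 (adjusted p = 1.00). marco had 8.54 and 4.45 CPM, a difference of 0.95 ± 0.67 (adjusted p = 1.00). The first MPEG1 gene differed by 0.75 ± 0.65, spi1b by 0.67 ± 0.40 and csf1ra by 0.52 ± 0.65, with ranges that overlapped between constructs, and csf1rb by -0.08 ± 0.46. The direction of the last pair rested on single libraries. csf1ra was at -0.40 without HRas control replicate 1, at -0.08 without HRasG12V replicate 1 and at 2.01 without HRas control replicate 2, and csf1rb was at 0.28 without HRas control replicate 2 and at 0.17 without HRasG12V replicate 1. The second MPEG1 gene had 2.57 and 0.275 CPM, a difference of 3.00 ± 1.196 (unadjusted p = 0.0176, adjusted p = 1.00), which rests on 1 and 5 counts in the control libraries and 31 and 57 in the HRasG12V libraries.

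Both alternatives that called members in macrophages also called many other genes. A model with only the macrophage libraries leaves 1 residual degree of freedom. There the second MPEG1 gene passed (adjusted p = 0.0490), as did 147 genes in all, whose share of the genes tested in that fit is not given. With limma on log2(TPM + 1), irf8 (adjusted p = 0.00921), marco (0.0385) and the second MPEG1 gene (0.00200) passed, among 260 of 15723 genes. On that scale the median of all genes was itself 0.51 higher with HRasG12V. The second MPEG1 gene passed the filter on low counts through HRasG12V libraries alone, so its calls here describe the gene and are not a separate test.

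**Figure D3:**
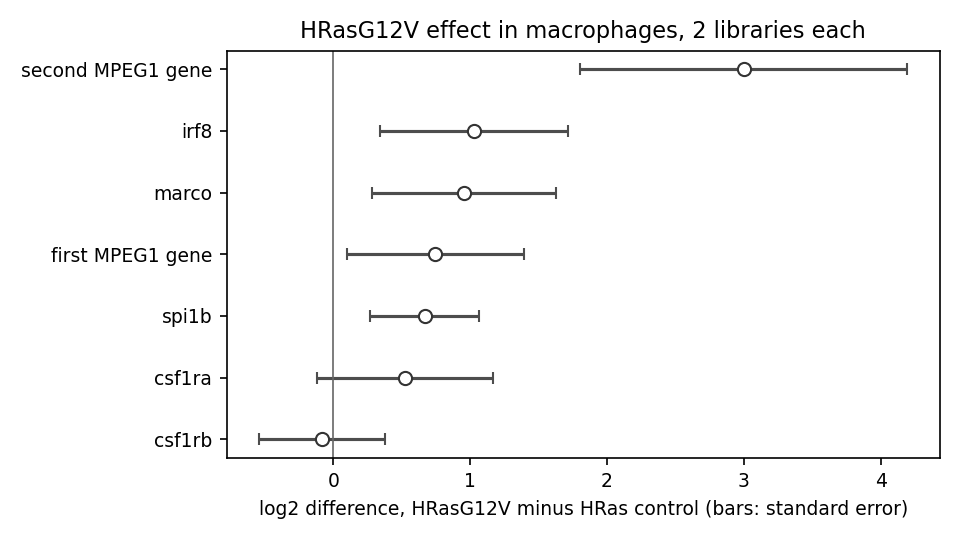
Log2 difference of HRasG12V from HRas control (horizontal axis, standard errors as bars) in macrophages, with 2 libraries of each construct, for the 7 members tested. All points are open because none passed the adjusted threshold. The second MPEG1 gene has the largest difference, 3.00, and csf1rb lies at -0.08.

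Marker levels of other cells moved with the construct in the same macrophage libraries. The 20 keratinocyte genes summed to 1399 and 1537 CPM with HRas control and to 2772 and 2788 CPM with HRasG12V. The 9 skeletal muscle genes summed to between 741 and 876 CPM with HRas control and between 1024 and 1442 CPM with HRasG12V. The 16 pan-leukocyte genes summed to between 92.4 and 158 CPM and between 188 and 216 CPM, and the 20 matched macrophage markers to between 62.8 and 85.3 CPM and between 110 and 159 CPM, with 3 of the 20 at 0 in both control libraries and 2 in both HRasG12V libraries. The 13 endothelial genes did not move in this way, with 30.9 to 33.2 CPM against 28.4 to 33.8 CPM. The part of these shifts in the members' values was not tested.

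**Figure D4:**
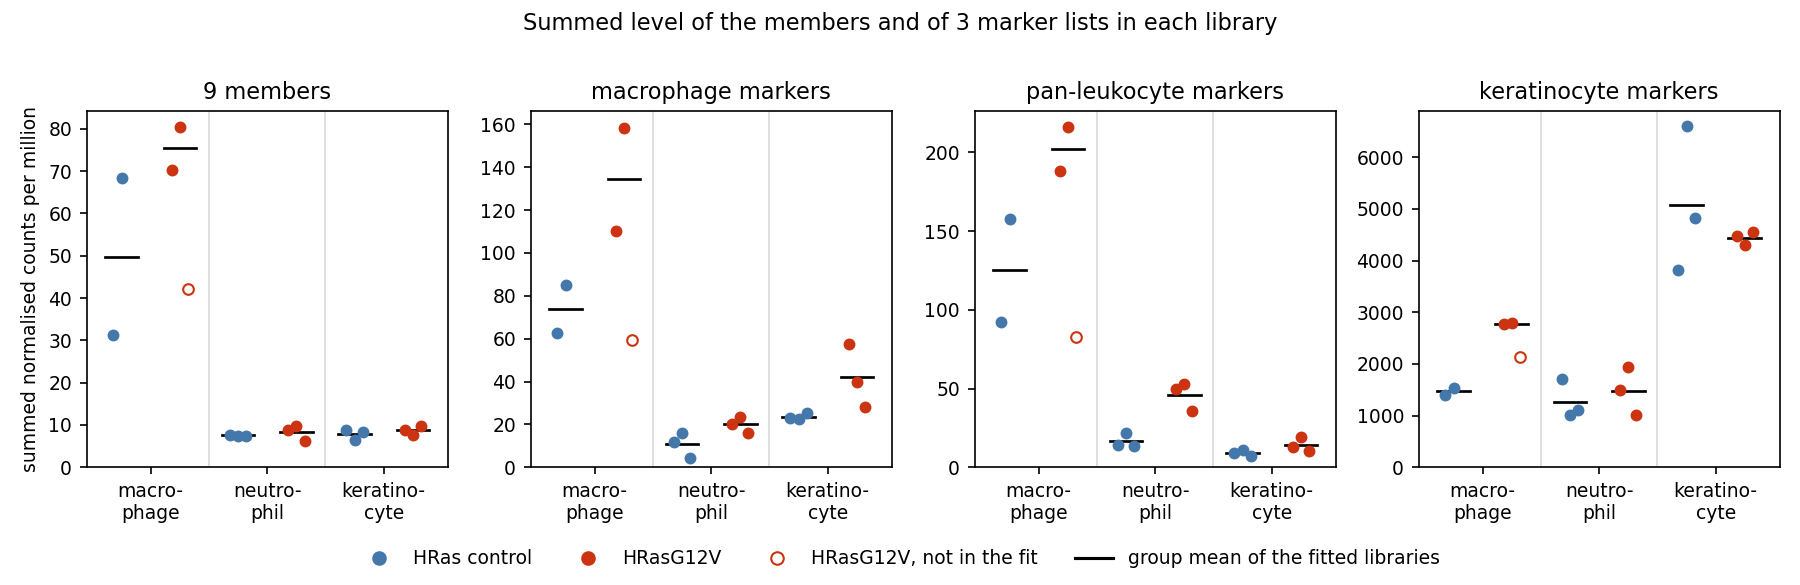
Summed normalised CPM (vertical axis, a separate scale in each panel) of the 9 members found and of the macrophage, pan-leukocyte and keratinocyte marker lists in each library, HRas control in blue and HRasG12V in red, with group means of the fitted libraries as black lines and macrophage HRasG12V replicate 3 as an open point. The macrophage HRasG12V libraries of the model lie above the macrophage control libraries in all 4 panels. The open point lies below those HRasG12V libraries in all 4 panels, and above both controls for the keratinocyte markers.

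In neutrophils, 0 of 7 members passed, where 0.223% of all genes did. At an unadjusted p under 0.05 there were 1125 of the 15723 genes and 3 members, spi1b and both MPEG1 genes. spi1b had 3.77 CPM with HRasG12V and 1.49 CPM with HRas control, a log2 difference of 1.43 ± 0.41 (unadjusted p = 0.00142, adjusted p = 0.206). All 3 HRasG12V libraries were above all 3 controls, as in 7.8% of all genes. The second MPEG1 gene was at 0 in all 3 control libraries and held 7, 11 and 2 counts with HRasG12V, at least 1.07-fold higher than a floor of 3 counts per control library (adjusted p = 0.305). csf1ra differed by -0.91 ± 0.66, csf1rb by -0.61 ± 0.41 and marco by 0.25 ± 0.78, with adjusted p-values between 0.852 and 0.980. irf8 and the first MPEG1 gene were under this floor with both constructs, so no difference is given for them.

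The neutrophil libraries also differed by construct in leukocyte genes. The 16 pan-leukocyte genes summed to between 13.6 and 21.9 CPM with HRas control and between 35.4 and 52.9 CPM with HRasG12V, and 3 of them were called higher (lcp1, ncf1 and fcer1gl). The 8 matched neutrophil markers summed to between 3.54 and 26.03 CPM and between 29.2 and 67.5 CPM, with lyz and mmp9 called higher. The 3.54 CPM was that of HRas control replicate 3, below every keratinocyte library (lowest 3.93 CPM), while HRas control replicates 1 and 2 held 26.03 and 21.1 CPM. Whether the spi1b values followed these shifts was not tested.

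In keratinocytes, 0 of 7 members passed, where 0.305% of all genes did. At an unadjusted p under 0.05 there were 1165 of the 15723 genes and 1 member, irf8. Its counts of 5, 1 and 0 with HRasG12V and 0 with HRas control lie at the floor. For the second MPEG1 gene the mean was 1.46 CPM with HRasG12V and 0.450 CPM with HRas control, a difference of 1.86 ± 1.04 (adjusted p = 0.743). spi1b differed by 0.18 ± 0.61, marco by 0.17 ± 0.70, csf1rb by -0.18 ± 0.42 and csf1ra by 0.02 ± 0.93, all less than 1 standard error from 0. In no member were all 3 HRasG12V libraries above all controls, as they were in 6.77% of all genes. In the same libraries the 9 skeletal muscle genes summed to between 560 and 899 CPM with HRas control and between 1617 and 1991 CPM with HRasG12V, and 4 of them were called higher.

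The HRasG12V effect was not shown to differ between cell types for any member. The difference of the macrophage effect from the neutrophil effect and from the keratinocyte effect, tested as interactions in the same model, passed the threshold in 0 of 7 members, where 0.0127% and 0.00636% of all genes passed, and no member had an unadjusted p under 0.05 in either.

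Averaged over the cell types, the second MPEG1 gene was the only member called for HRasG12V. In a contrast added after the values were seen, the mean of the HRasG12V effects in the 3 cell types was 3.42 ± 0.78 on the log2 scale (adjusted p = 0.0361), where 0.522% of all genes passed. The gene passed the filter on low counts through HRasG12V libraries alone, and its highest control library held 6 counts. This call thus describes the gene and is not a separate test. Within batches the gene was higher with HRasG12V in 2 of 2 pairs of macrophage libraries. The same held in 3 of 3 pairs each of neutrophil and keratinocyte libraries. The share of all genes with this pattern was not determined, so the pattern is only a description of a gene chosen after the values were seen. Its neutrophil pairs rest on 7, 11 and 2 counts against 0. For the mean effect, 4 of 9 skeletal muscle genes and 2 of 16 pan-leukocyte genes were also called higher. The size of the fitted effect depends on libraries at 0, and with a prior count of 2 it was 1.91. The call held in 5 of 16 fits that left out 1 library: keratinocyte HRas control replicate 1, keratinocyte HRasG12V replicate 2, macrophage HRas control replicate 2, neutrophil HRas control replicate 3 or neutrophil HRasG12V replicate 3. In the 11 other such fits the adjusted p lay above 0.05, up to 0.182, and the effect over all 16 ranged from 3.21 to 4.04. spi1b came next by p among members, with a mean effect of 0.76 ± 0.28 (adjusted p = 0.289).

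**Figure D5:**
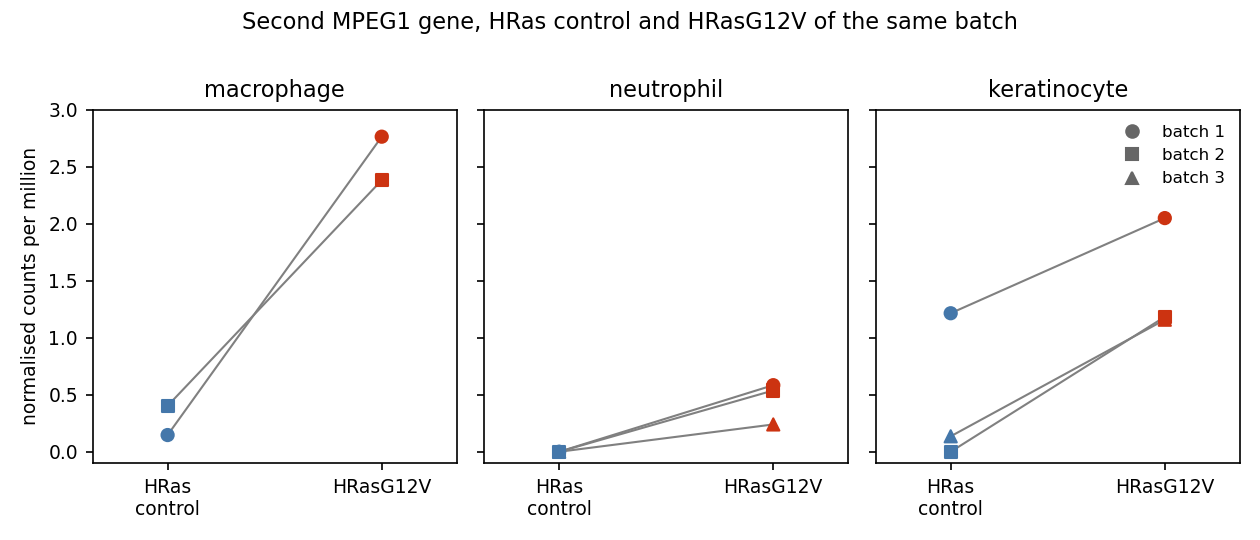
Normalised CPM (vertical axis) of the second MPEG1 gene with HRas control and with HRasG12V, with lines joining libraries of the same batch, for macrophages (2 batches), neutrophils and keratinocytes (3 batches each). All 8 lines go up, from 0 in all 3 neutrophil controls, whose points coincide, and from 1.21 in the highest keratinocyte control. How many other genes rise in all 8 was not determined.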

How the data were processed

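TRAP-seq libraries of keratinocytes, neutrophils and macrophages from 3 days post-fertilization larvae were grouped by the cell type and genotype in the labels. RNA had been amplified with the NuGEN Ovation Single Cell kit over 20 cycles, without molecular identifiers. The authors aligned reads with Bowtie 1.1.1 to GRCz10 and quantified genes with RSEM 1.2.20 (per the submitters' processing notes), and deposited for each library the expected counts per gene, not normalized, and the TPM values, scaled by RSEM for length and depth. The annotation release is not given in the sources used here. RSEM divides reads that fit several genes, so near-identical genes can share counts.

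Expected counts were rounded. With edgeR 4.0.16 in R 4.3.3, genes passing filterByExpr over the 6 groups were scaled by TMM and fitted by 1 quasi-likelihood model with a term for each group and for the batch (16 libraries, 15723 genes, prior count 0.125). P-values were adjusted over all genes tested by Benjamini-Hochberg, and the threshold was 0.05. The replicate is a pool of larvae, so p-values measure the spread between pools. Batch in the labels was taken to pair the libraries. Between the constructs of 1 cell type and batch, deviations from the group means correlated with r of 0.0274 to 0.326 over 4508 genes (2 macrophage pairs share 1 value by construction). Constructs were weighted equally within a cell type. cd74a and cd74b, which failed the filter, were compared by exact permutation tests on log2(TPM + 1).

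Alternatives were DESeq2 1.42.0 and its size factors, library size only, other filters, no batch term, the 12 features that were among the 10 most abundant of any library removed, unrounded counts, a prior count of 2, limma 3.58.1 on log2(TPM + 1), other sets of libraries, and each library left out. The floor of detection was 3 counts per library. Exact binomial intervals are 95% intervals for counting error, and they take each read as an independent molecule.

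Members and gene lists were chosen with earlier results of these data known. All members are named. Of each list, up to 4 genes with the smallest adjusted p are named, and the 3 receptor ligands and mrc1b were added by choice. Symbols were matched ignoring case or by RefSeq synonym. The genes most like the members are the 5 with the highest correlation to the mean of the members' standardised log2 CPM (prior count 2), where a gene averaged 10 counts or more.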

Additional observations from a re-analysis of the deposited data

Results flagged for a closer look

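Macrophage HRasG12V replicate 3 was not in the reported model, because its control library held only 16990 counts, and 4 members were higher in it than in both macrophage control libraries of the model. csf1rb stood at 8.24 CPM there, against 6.68 and 8.11 CPM in the controls. The second MPEG1 gene (ENSDARG00000043093) stood at 2.84 CPM, against 0.147 and 0.403 CPM, and marco at 8.13 CPM, against 3.23 and 5.67 CPM. cd74b stood at 0.315 CPM, from 4 counts, against 0 and 0.0806 CPM. In the same library irf8 stood at 1.42 CPM, below both controls, and spi1b, csf1ra and the first MPEG1 gene stood at 12.1, 4.93 and 4.18 CPM, within the range of the controls. This comparison of 1 library with those of other batches was not tested. The share of all genes with this pattern was not determined, so the count of 4 members is only a description.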

How the results depend on the processing

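The number of members higher in macrophages than in the mean of the other cell types was 6 under every alternative run other than leaving out 1 library, and 5 to 6 then. It was 5 to 7 against neutrophils and 5 to 6 against keratinocytes over the alternatives, and 5 to 6 and 4 to 5 when 1 library was left out. Without the replicate block it was 6, 7 and 5 in these comparisons and 0 for HRasG12V in every cell type, so among these the block changed 1 call, that of the second MPEG1 gene against neutrophils (3.54 without it, adjusted p = 0.0343). That gene also passed there with DESeq2 (0.0432), with all 18 libraries (0.0139), with 17 (0.0244) and with limma (0.0163), and limma called it against the mean of both (0.47, adjusted p = 0.0169). csf1rb lost its call against that mean with limma (0.64, adjusted p = 0.0636) and, against neutrophils, with limma (0.178) and library size only (0.0985), and the last setting called it against keratinocytes (0.0420). In macrophages, HRasG12V called 0 members in the reported model and when any 1 library was left out, 1 with only the macrophage libraries and 3 with limma on log2(TPM + 1).

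HRasG12V differences that changed sign were uncalled. For csf1rb in macrophages the value was 0.80 with library size only and 0.51 with limma, and in keratinocytes 0.25 and 0.12. For csf1ra in keratinocytes it was -0.0031 with DESeq2's size factors, -0.056 without the replicate block and -0.029 with unrounded counts. Without all replicate 3 libraries it was -0.20 for spi1b and -0.29 for marco in keratinocytes. When 1 library was left out, the values ranged from -0.27 to 0.67 for spi1b in keratinocytes, from -0.39 to 0.28 and from -0.45 to 0.072 for csf1rb in macrophages and keratinocytes, from -0.40 to 2.01 and from -0.49 to 0.90 for csf1ra in macrophages and keratinocytes, and from -0.61 to 0.86 and from -0.64 to 0.81 for marco in neutrophils and keratinocytes. The cause was not tested. The second MPEG1 gene had no value under the filter of a mean of at least 10 counts, some members failed the filter within the libraries of 1 cell type, and a fit of only the cell types compared could not differ for the comparison with both.

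For the mean HRasG12V effect of the second MPEG1 gene, 9 of the 11 other alternatives with an adjusted p kept the call. It was lost without the replicate block (0.0532) and without all replicate 3 libraries (0.0752). The prior count of 2 is among the 9, but it changes only the fold and leaves the p-value as it was. DESeq2 gave no adjusted p for this gene. Over all genes, library size only and limma on TPM do not correct for the most abundant features, and they put the median log2 difference of macrophages from the mean of the others at 0.67 and 0.29 (0.01 in the model) and that of HRasG12V in macrophages at 0.84 and 0.51 (0.01). The share of calls that were higher in macrophages was 78.0% in the model, 99.3% with library size only and 99.8% with limma, and against neutrophils 79.9%, 96.4% and 97.9%, and against keratinocytes 54.8%, 98.6% and 99.0%. Genes called for HRasG12V over the alternatives numbered 0 to 260 in macrophages (0 in the model), 1 to 114 in neutrophils (35) and 9 to 93 in keratinocytes (48). cd74a, cd74b and the 3 receptor ligands had too few counts to enter the model.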
